A study of Mus musculus with 2 samples.

Results

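Among 16530 nuclei of mouse calf muscle, 208 carried Myh2 as their leading adult myosin heavy chain transcript while holding almost none of the transcripts of Myoz2 and Sox2ot. They are called low Myh2 nuclei here, and 171 came from plantaris and 37 from gastrocnemius. A nucleus belonged to the group when it held 5 or more unique molecular identifiers (UMIs, each standing for 1 captured transcript molecule) summed over Myh1, Myh2, Myh4 and Myh7, when Myh2 was strictly the most abundant of them, when Myh1 gave under 20% of the sum, and when Myoz2 and Sox2ot together had fewer than 2 UMIs. The members were thus chosen by the measured UMI counts of those 6 genes, whose values are given as a description. The nuclei came from plantaris and gastrocnemius, neighbouring calf muscles of wild-type C57BL/6 mice aged 12 weeks, with 1 single-nucleus RNA library per muscle, and no treatment is named. The sources used here do not give the number of mice, their sex or whether both muscles were from the same animals, so muscle, animal and library cannot be told apart and no difference has a replicate check.

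Adult fast muscle fibres are classed by the myosin heavy chain they build: Myh2 marks type 2A fibres, Myh1 type 2X, Myh4 type 2B and Myh7 the slow type 1. Type 2A fibres are the most oxidative of the fast types. They burn fatty acids through a programme in which PGC-1α, the coactivator encoded by Ppargc1a, works with nuclear receptors such as PPARα, encoded by Ppara, and the oestrogen-related receptors. Cd36 encodes a transporter that brings long-chain fatty acids into the fibre. Myoz2 encodes calsarcin-1, a Z-disc protein that binds and restrains calcineurin and is typical of slow and oxidative fibres, and Sox2ot is a long noncoding RNA whose gene surrounds Sox2.

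For comparison, high Myh2 nuclei met the same rule but held 2 or more UMIs of Myoz2 and Sox2ot (141 in plantaris, 94 in gastrocnemius). Hybrid nuclei drew 20% or more of their myosin UMIs from each of Myh1 and Myh2 and under 20% from Myh4 (332 and 42 in the same order of muscles). Pure Myh1 nuclei (531 and 98) and pure Myh4 nuclei (4290 and 4589) were led by those genes. They drew under 20% from each of the others among Myh1, Myh2 and Myh4, with no limit set on Myh7. Levels are given as CPM, the UMI count of a gene scaled to a fixed total of UMIs of the group in that library (counts per 1e6). Intervals in parentheses are at 95% and cover counting error only, since nuclei of 1 library are not replicates. A fold of 2 in both libraries is used throughout as a size, not as a test.

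Depth differed between the groups compared. Low Myh2 nuclei had a median of 3171 UMIs and 1403 genes in plantaris and 1851 UMIs and 941 genes in gastrocnemius, where the whole group sums to 77994 UMIs against 579418 in plantaris. The same medians were 3615 UMIs in plantaris and 2792.5 in gastrocnemius for pure Myh1 nuclei, and 3755 and 3165 for high Myh2 nuclei. The 37 gastrocnemius nuclei limit every comparison, and UMI counts are given where they are small. Across the libraries, 17 barcode sequences occurred in both, and 1 low Myh2 nucleus carried such a barcode.

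The promoters of the genes that define or lead the group are shown to give the sequences behind the names. Myh2 lies on chromosome 11 at 67171027 to 67197517 on the plus strand (mm10), directly upstream of Myh1 at 67200052 to 67224575 and Myh4 at 67238029 to 67260446, in a cluster of myosin genes. Ppara lies on chromosome 15 at 85734983 to 85802819 and Cd36 on chromosome 5 at 17781690 to 17888801 on the minus strand. The sequences are RefSeq's, from 250 bases before to 50 bases after an annotated start, 5′ to 3′ along the gene, from build GRCm38.p6. For Myh1, Ppara and Cd36 the start used lies inside the gene span given above, not at its outer end. The windows are chr11:67170777-67171076 for Myh2, chr11:67199852-67200151 for Myh1, chr15:85735526-85735825 for Ppara and chr5:17835847-17836146, minus strand, for Cd36.
Myh2 promoter: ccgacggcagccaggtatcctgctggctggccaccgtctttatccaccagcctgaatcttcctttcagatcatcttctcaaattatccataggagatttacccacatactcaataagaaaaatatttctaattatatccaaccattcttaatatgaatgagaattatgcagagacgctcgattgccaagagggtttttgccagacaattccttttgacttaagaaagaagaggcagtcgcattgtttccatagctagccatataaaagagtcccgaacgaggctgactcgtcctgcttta
Myh1 promoter: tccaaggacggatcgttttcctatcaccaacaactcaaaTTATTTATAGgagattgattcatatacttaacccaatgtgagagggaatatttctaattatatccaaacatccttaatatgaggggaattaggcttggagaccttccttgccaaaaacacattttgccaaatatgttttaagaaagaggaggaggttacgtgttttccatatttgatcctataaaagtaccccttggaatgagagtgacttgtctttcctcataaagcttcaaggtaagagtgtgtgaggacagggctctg
Ppara promoter: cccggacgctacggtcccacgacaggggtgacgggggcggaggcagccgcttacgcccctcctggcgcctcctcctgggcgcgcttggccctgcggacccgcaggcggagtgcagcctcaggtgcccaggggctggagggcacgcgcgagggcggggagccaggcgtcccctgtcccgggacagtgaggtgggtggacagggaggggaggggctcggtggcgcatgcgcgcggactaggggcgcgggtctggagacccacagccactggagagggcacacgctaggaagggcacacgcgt
Cd36 promoter: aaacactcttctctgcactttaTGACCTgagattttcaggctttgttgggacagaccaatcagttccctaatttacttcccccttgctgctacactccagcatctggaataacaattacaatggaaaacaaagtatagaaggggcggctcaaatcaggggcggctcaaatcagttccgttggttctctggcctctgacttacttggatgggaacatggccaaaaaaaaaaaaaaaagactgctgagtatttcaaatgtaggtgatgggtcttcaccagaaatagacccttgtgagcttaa
Capitals mark matches to searched motifs. The Myh1 window holds a MEF2 motif 211 to 202 bases before the start, which reads as a match on both strands, and the Cd36 window holds TGACCT, which is AGGTCA on the opposite strand, 228 to 223 bases before the start. AGGTCA is the core half-site of many nuclear receptors and was found on either strand in 16.3% of 32851 promoter windows of this length, and the MEF2 motif was found in 3.19%. The Myh2 and Ppara windows hold neither. Windows of Ppargc1a, Esrrb, Bdh1 and Coro6, genes taken up below, were searched too, are not shown and hold neither. The E-box CANNTG was in 72.3% of windows, with 1 match in that of Ppara, 2 in that of Cd36 and none in those of Myh2 and Myh1. A match describes letters only.

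The nuclei were myonuclei by their content. All 8 myonucleus markers were detected in both libraries, among them the giant sarcomere proteins Ttn and Neb, and together they made up 68674 CPM in plantaris and 77660 CPM in gastrocnemius, against 70915 and 82634 CPM in pure Myh1 nuclei of the same muscles. Within the myosin UMIs of low Myh2 nuclei, Myh2 made up 84.3% in plantaris and 80.7% in gastrocnemius. Myh1 made up 8.63% and 9.07%, and Myh4 7.04% and 10.2%. No Myh7 UMI was found among 2584 myosin UMIs in plantaris or 430 in gastrocnemius, which allows shares of up to 0.116% and 0.698% (3 UMIs of the total). The labelled markers Ppara, Ppargc1a and Cd36 were all far above their levels in pure Myh4 nuclei, as given next, but Ppargc1a was not higher in low Myh2 than in pure Myh1 nuclei.

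Low Myh2 nuclei were 1.87% (1.60 to 2.17) of all nuclei in the plantaris library and 0.502% (0.354 to 0.691) in the gastrocnemius library. Within the Myh2 nuclei, low ones were 54.8% (49.1 to 60.4) of 312 in plantaris and 28.2% (20.7 to 36.8) of 131 in gastrocnemius. A shallow nucleus is more likely to show fewer than 2 UMIs of any gene, and the low share was lower at greater depth in both muscles. Under 2000 UMIs, it was 33 of 46 nuclei (71.7%) in plantaris and 22 of 44 (50%) in gastrocnemius. From 2000 to under 4000 UMIs it was 86 of 152 (56.6%) and 12 of 54 (22.2%), and at 4000 or more 52 of 114 (45.6%) and 3 of 33 (9.09%). The plantaris share was the higher at each depth. With each nucleus thinned to 1000 UMIs, 182 of 307 Myh2 nuclei of plantaris (59.3%) and 36 of 123 of gastrocnemius (29.3%) kept no UMI of Myoz2 or Sox2ot.

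The split falls within a graded range. In plantaris, 111 nuclei had no UMI of Myoz2 and Sox2ot, 60 had 1, 41 had 2, 26 had 3 and 74 had 4 or more. In gastrocnemius the numbers were 29, 8, 21, 16 and 57. The nuclei just inside the threshold, with 1 UMI, and just outside it, with 2, thus number 60 and 41 in plantaris and 8 and 21 in gastrocnemius, with no gap between them. Myoz2, on chromosome 3 at 123006206 to 123035015, stood at 86.3 CPM in low and 788 CPM in high Myh2 nuclei of plantaris, and at 76.9 and 1160 CPM in gastrocnemius. Pure Myh1 nuclei had 34 CPM of Myoz2 in plantaris and 73.0 CPM in gastrocnemius. Sox2ot, on chromosome 3 at 34104270 to 34682619, stood at 17.3 CPM in low and 463 CPM in high Myh2 nuclei of plantaris, and at 25.6 and 1134 CPM in gastrocnemius.

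**Figure D1:**
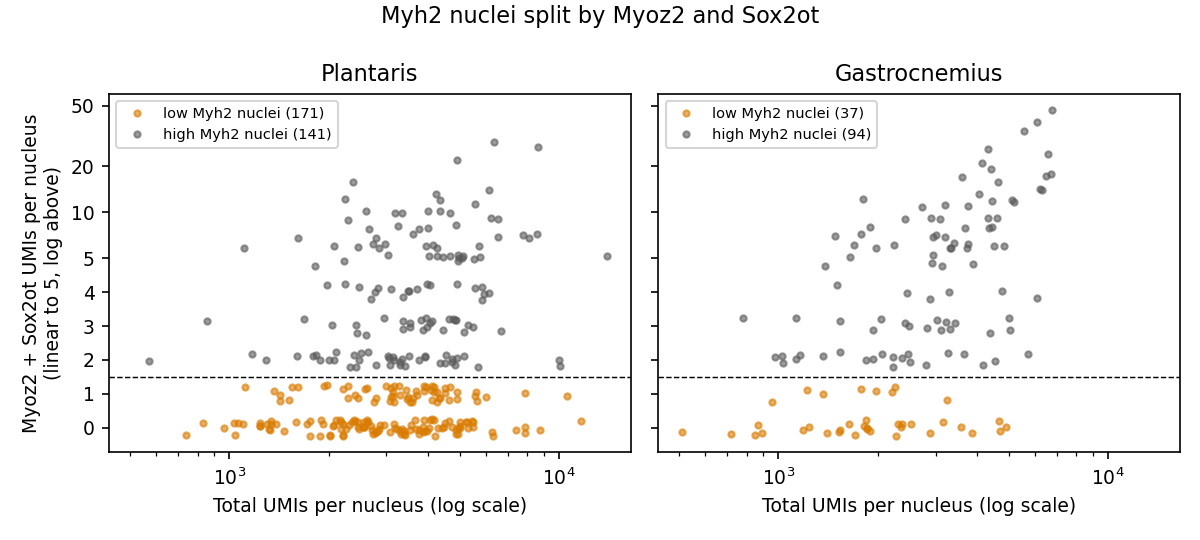
Each point is 1 Myh2 nucleus, with its total UMIs on a log scale against its UMIs of Myoz2 and Sox2ot (linear to 5, log above, points jittered), in plantaris at the left and gastrocnemius at the right. Low Myh2 nuclei (171 and 37) lie below the dashed line and high ones (141 and 94) above it, and in gastrocnemius few low nuclei lie at high depth.

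Myh2 itself stood at 3761 CPM (3604 to 3922) in low Myh2 nuclei of plantaris, where high ones had 3974, hybrid ones 2662 and pure Myh1 ones 32.1. In gastrocnemius it stood at 4449 CPM (3993 to 4943) in low nuclei, with 4663 in high, 2896 in hybrid and 31.3 in pure Myh1 nuclei. Low and high Myh2 nuclei held close levels of the myosin that defines them, and their intervals, 3811 to 4142 for high nuclei of plantaris and 4426 to 4909 for those of gastrocnemius, overlap those of the low ones. Myh1 gave 385 CPM in low Myh2 nuclei of plantaris and 500 in gastrocnemius, against 3947 and 5157 in pure Myh1 nuclei.

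Ppara, the fatty acid sensor, was higher in low Myh2 than in pure Myh1 nuclei of both muscles. It had 1707 CPM (1602 to 1817) in low Myh2 nuclei and 1014 CPM (972 to 1059) in pure Myh1 nuclei of plantaris. In gastrocnemius it had 1385 CPM (1136 to 1672) in low Myh2 nuclei and 782 CPM (683 to 891) in pure Myh1 nuclei. The log2 ratio was 0.75 (0.64 to 0.86) in plantaris and 0.82 (0.48 to 1.16) in gastrocnemius. The order of groups was the same in both muscles, with high Myh2 nuclei at 1970 and 1570 CPM, hybrid at 1890 and 1534, then low Myh2, pure Myh1 and pure Myh4 at 91.4 and 35.4. In gastrocnemius the intervals of the first 3 groups overlap.

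Ppara UMIs were present in 91.2% of low Myh2 nuclei of plantaris and 83.8% of those of gastrocnemius. In mesenchymal-like nuclei, used as a guide to the free RNA of the preparation, the shares were 10.9% and 5.37%, with median depths of 1946 and 1579 UMIs. Doublets remain among them too, and 1 such nucleus of plantaris held 2478 UMIs of the myonucleus markers. Pure Myh1 nuclei had 79.3% in plantaris and 73.5% in gastrocnemius. After thinning each nucleus to 1000 UMIs, Ppara was seen in 75.0% of low Myh2 nuclei, 56.7% of pure Myh1 nuclei and 6.09% of mesenchymal-like nuclei in plantaris. The thinned shares in gastrocnemius were 71.0%, 51.1% and 2.60%. Thinning left out 3 low Myh2 nuclei of plantaris and 6 of gastrocnemius that were shallower than 1000 UMIs.

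Cd36 was also higher in low Myh2 than in pure Myh1 nuclei of both muscles, by a smaller step. It had 1030 CPM (949 to 1116) in low Myh2 nuclei and 787 CPM (749 to 826) in pure Myh1 nuclei of plantaris. In gastrocnemius it had 2385 CPM (2054 to 2753) in low Myh2 nuclei and 1734 CPM (1585 to 1893) in pure Myh1 nuclei. The log2 ratios were 0.39 (0.25 to 0.53) in plantaris and 0.46 (0.21 to 0.71) in gastrocnemius. Pure Myh4 nuclei had 69.9 and 82.8 CPM. High Myh2 nuclei, at 1162 CPM in plantaris and 2464 in gastrocnemius, stood close to the low ones in both muscles.

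Ppargc1a, whose gene lies on chromosome 5 at 51454250 to 51567726 on the minus strand, did not follow this order. In plantaris it had 3809 CPM (3652 to 3971) in low Myh2 nuclei and 3815 CPM (3731 to 3899) in pure Myh1 nuclei, a log2 ratio of -0.00 (-0.07 to 0.07). In gastrocnemius it was lower in low Myh2 nuclei, at 2026 CPM (1722 to 2367), than in pure Myh1 nuclei, at 3201 CPM (2997 to 3414), a log2 ratio of -0.66 (-0.91 to -0.41). High Myh2 nuclei had 4029 CPM in plantaris and 2144 in gastrocnemius, and pure Myh4 nuclei 460 and 472. Its level in Myh2 nuclei, low or high, thus differed between the libraries more than its level in pure Myh1 nuclei did.

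**Figure D2:**
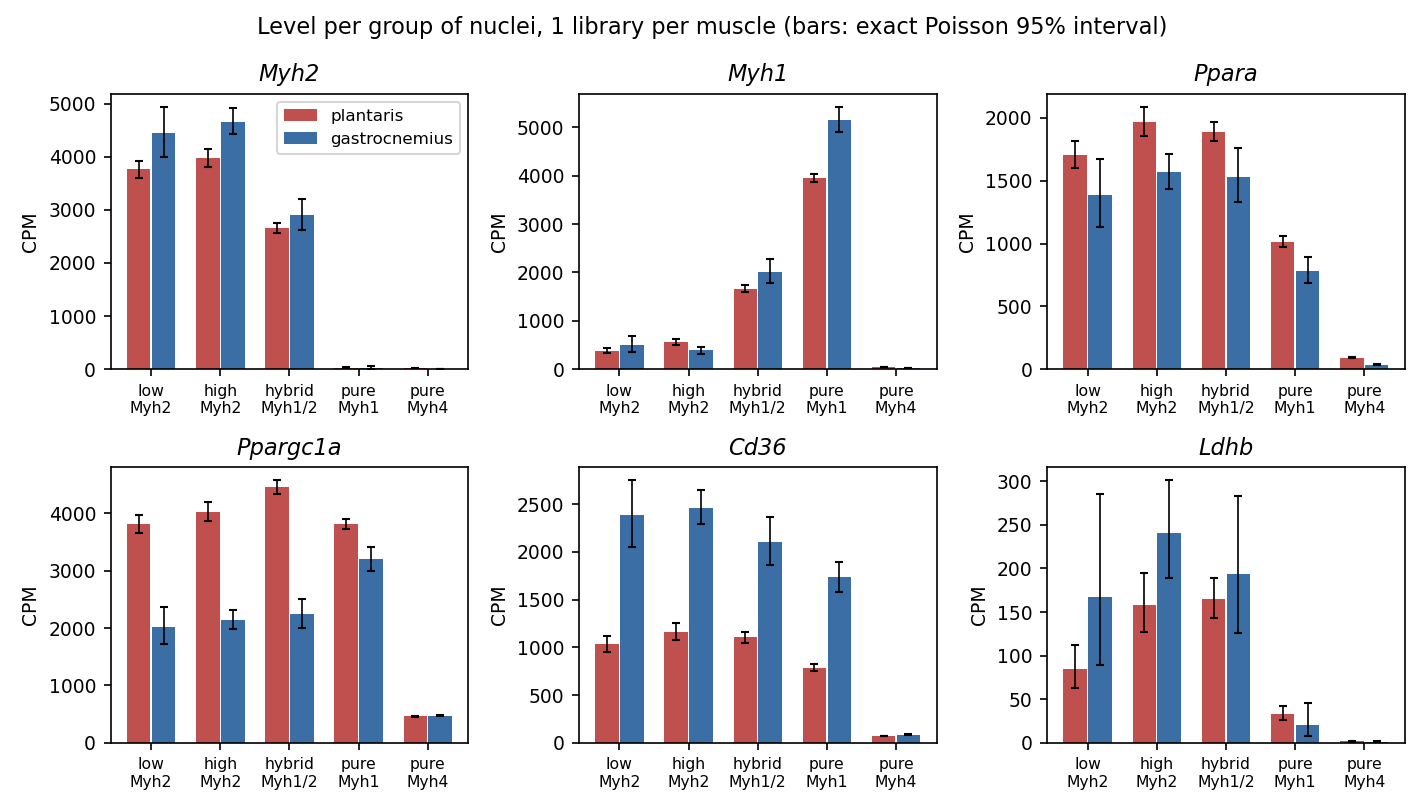
Bars give the level in CPM of 6 genes in 5 groups of nuclei, plantaris beside gastrocnemius, with exact Poisson 95% intervals as error lines. Ppara and Cd36 stand higher in the Myh2 groups than in pure Myh1 nuclei of the same muscle, and Ppargc1a in gastrocnemius stands at 2026 CPM in low Myh2 and 3201 CPM in pure Myh1 nuclei.

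Beyond these markers, few genes differed by 2-fold between low Myh2 and pure Myh1 nuclei. Of 2664 genes with 20 or more UMIs over both groups in each library, 9 (0.338%) were higher in low Myh2 nuclei by 2-fold or more in both muscles and 8 (0.3%) were lower. Within plantaris alone the shares past 2-fold were 0.713% higher and 1.09% lower, and within gastrocnemius, where counts were smaller, 5.63% and 8.18%. The median log2 ratio over all measured genes was 0.00 in plantaris and 0.01 in gastrocnemius. The number higher was not stable: it was 1 with 10 or more myosin UMIs required, 3 with nuclei thinned to 1000 UMIs, 1 without nuclei marked by broad junction lists, 4 without nuclei holding UMIs of other cell types, and 146 with no minimum count. The last count takes in genes of few UMIs, which can pass 2-fold through the smaller UMI total of low Myh2 nuclei. The number lower ranged from 5 to 20 over the alternatives.

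Esrrb, an oestrogen-related receptor gene on chromosome 12 at 86361117 to 86521628 and a regulator of oxidative metabolism, was among the 9. It had 140 CPM (81 UMIs) in low Myh2 nuclei and 51.3 CPM (107 UMIs) in pure Myh1 nuclei of plantaris. In gastrocnemius it had 154 CPM (12 UMIs) in low Myh2 nuclei and 52.1 CPM (15 UMIs) in pure Myh1 nuclei. The log2 ratios were 1.45 (1.01 to 1.88) in plantaris and 1.56 (0.34 to 2.76) in gastrocnemius. High Myh2 nuclei had 182 CPM in plantaris and 205 in gastrocnemius, while pure Myh4 nuclei had 4.31 and 1.90 CPM.

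Khdrbs3, an RNA-binding splicing regulator, had 212 CPM in low Myh2 nuclei and 92.0 CPM in pure Myh1 nuclei of plantaris, and 256 and 86.9 CPM in gastrocnemius. Its log2 ratios were 1.21 and 1.56, but mesenchymal-like nuclei also held 88.0 and 88.6 CPM of it. Coro6, a coronin that binds actin, had 245 CPM in low Myh2 nuclei and 99.2 CPM in pure Myh1 nuclei of plantaris, and 141 and 48.7 CPM in gastrocnemius, where it rests on 11 and 14 UMIs. Nckap5 had log2 ratios of 1.19 in plantaris and 2.17 in gastrocnemius, with 500 CPM in low Myh2 and 111 CPM in pure Myh1 nuclei of gastrocnemius.

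Phyhd1, a dioxygenase of the phytanoyl-CoA family, was also higher by 2-fold in both muscles, with log2 ratios of 1.08 in plantaris and 1.24 in gastrocnemius, the last on 16 and 25 UMIs. Elmsan1 had 1.0 and 1.88, with 10 UMIs in each gastrocnemius group. Pdlim1, a Z-disc associated PDZ and LIM protein, had 1.21 in plantaris and 1.01 in gastrocnemius, where the interval (-0.14 to 2.09) holds 0. The gene model Gm28653 had 2.71 and 1.37.

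Mylk4, a kinase of the myosin light chain kinase family on chromosome 13 at 32700834 to 32783954, was the best measured of the 8 genes lower in low Myh2 nuclei. It had 538 CPM in low Myh2 nuclei and 1354 CPM in pure Myh1 nuclei of plantaris, and 1449 and 4271 CPM in gastrocnemius. The log2 ratios were -1.33 (-1.50 to -1.16) and -1.56 (-1.85 to -1.28). Pure Myh4 nuclei had 4776 CPM in plantaris and 10546 in gastrocnemius. Mesenchymal-like nuclei held 751 CPM of Mylk4 in plantaris and 1445 in gastrocnemius against 538 and 1449 CPM in low Myh2 nuclei. The part of free RNA or doublets in the low Myh2 value was not tested.

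Trp63, the p53-family transcription factor gene on chromosome 16 at 25683763 to 25892102, showed the same order. It had 126 CPM in low Myh2 nuclei and 421 CPM in pure Myh1 nuclei of plantaris, and 103 and 403 CPM in gastrocnemius. The log2 ratios were -1.74 (-2.11 to -1.40) and -1.97 (-3.22 to -0.95). Pure Myh4 nuclei held 838 CPM in plantaris and 585 in gastrocnemius, and mesenchymal-like nuclei 118 and 89.4 CPM, close to the level in low Myh2 nuclei. Slc8a1, the sodium-calcium exchanger, had 373 CPM in low Myh2 nuclei and 757 CPM in pure Myh1 nuclei of plantaris, and 103 CPM (8 UMIs) and 438 CPM (126 UMIs) in gastrocnemius.

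Mast4, a microtubule-associated kinase, had log2 ratios of -1.01 in plantaris and -2.01 in gastrocnemius. Gpt2, the mitochondrial alanine aminotransferase, had -1.34 and -2.29, on 2 UMIs in low Myh2 nuclei of gastrocnemius. Nr4a3, an activity-induced nuclear receptor, had -1.04 and -3.07, on 112 UMIs in plantaris and 1 UMI in gastrocnemius. Pgk1, a glycolytic kinase, had -1.41 and -1.36, on 7 and 2 UMIs in low Myh2 nuclei, with a gastrocnemius interval (-4.51 to 0.69) that holds 0. The eighth was the gene model Gm13490, with -1.23 and -2.76.

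**Figure D3:**
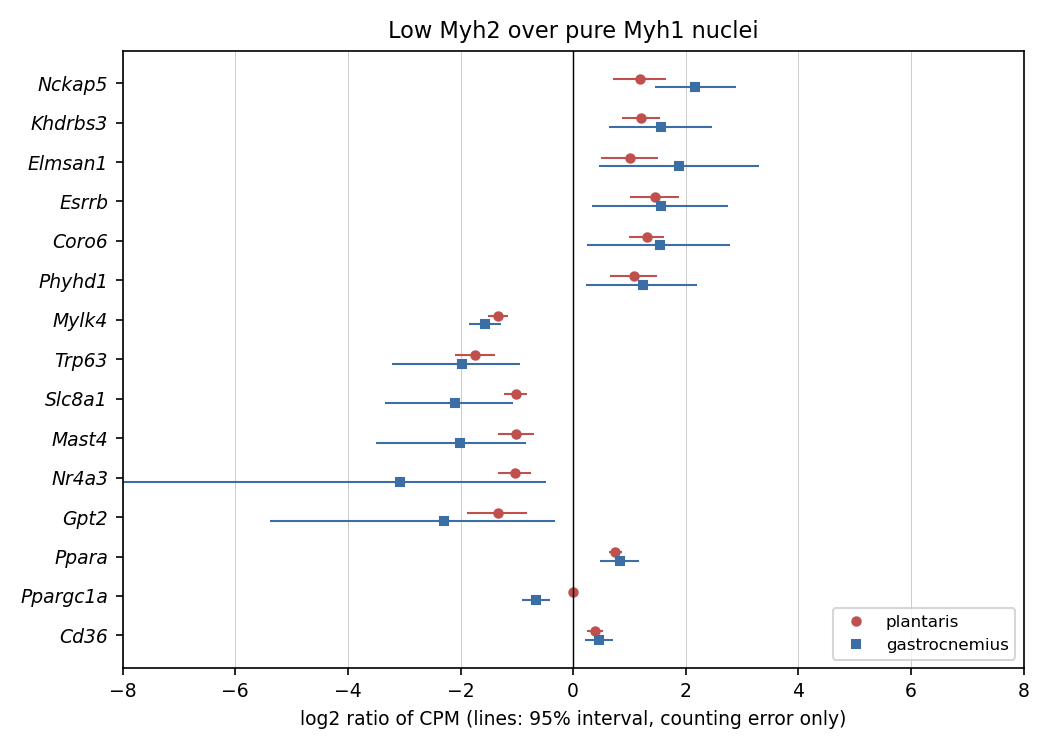
Log2 ratios of CPM in low Myh2 over pure Myh1 nuclei are drawn for the named genes and the markers, plantaris as circles and gastrocnemius as squares, with 95% intervals that cover counting error. Esrrb stands at 1.45 and 1.56 and Mylk4 at -1.33 and -1.56, gastrocnemius intervals are the wider ones, and that of Nr4a3 runs past the left edge.

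Groups of genes that build the oxidative programme held more members above than below pure Myh1 nuclei, without large steps. Among all 2664 genes, 762 (28.6%) were above pure Myh1 nuclei in both muscles and 726 (27.3%) below. Of 15 oxidative regulators, 10 could be measured in both libraries, of which 5 were above pure Myh1 nuclei in both muscles and 2 below, with medians of 0.29 in plantaris and 0.23 in gastrocnemius. Esrrg, the oestrogen-related receptor typical of oxidative muscle, had log2 ratios of 0.34 and 0.32, and Tead1, a factor of slow-type gene expression, 0.23 and 0.37. Nrip1, which encodes the corepressor RIP140, was lower in low Myh2 nuclei, with -0.58 (-0.83 to -0.33) and -1.91 (-3.16 to -0.88).

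Among 26 genes of fatty acid uptake and oxidation, 16 could be measured, with 10 above and 2 below in both muscles and medians of 0.36 and 0.15. Lpl, the lipase that frees fatty acids from lipoproteins, had 744 CPM in low Myh2 nuclei and 540 CPM in pure Myh1 nuclei of plantaris, and 692 and 327 CPM in gastrocnemius. Cpt1b, the mitochondrial gate for fatty acids, had 0.79 (0.48 to 1.10) in plantaris and 0.44 (-0.56 to 1.36) in gastrocnemius. Acsl1, which activates fatty acids, went opposite ways, with 0.33 in plantaris and -0.54 in gastrocnemius. None of the 16 reached 2-fold in both.

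Of 25 genes of the citrate cycle and respiratory chain, 14 could be measured, with 8 above and 3 below in both and medians of 0.09 and 0.28. Idh2, the mitochondrial isocitrate dehydrogenase, was the exception in size, with 268 CPM in low Myh2 nuclei and 81.9 CPM in pure Myh1 nuclei of plantaris, and 180 CPM (14 UMIs) and 90.4 CPM (26 UMIs) in gastrocnemius. Its log2 ratios were 1.71 (1.38 to 2.03) and 0.99 (-0.06 to 1.98). Of 15 genes of ketone use and lactate handling, 7 could be measured, 3 above and 2 below, a split near that of all genes. Oxct1, which starts ketone oxidation, had 0.50 and 0.74, and Acat1, which completes it, 0.49 and 0.80.

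Genes of glycolysis and of the fast sarcomere leaned the other way. Of 25 genes of glycolysis and glycogen, 17 could be measured, with none above and 9 below in both muscles. Their medians were -0.26 in plantaris and -0.12 in gastrocnemius, and Pgk1 alone reached 2-fold in both. Phka1 and Phkg1, subunits of the phosphorylase kinase that sets off glycogen breakdown, had -0.66 and -0.44, and -0.43 and -0.72. Tbc1d1, a brake on glucose transporter traffic from the insulin list, had -0.78 and -1.54.

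Of 15 fast sarcomere genes, 14 could be measured, 1 above and 9 below in both muscles, with medians of -0.36 and -0.10. Myom2, an M-band protein, had 44.9 CPM in low Myh2 nuclei and 263 CPM in pure Myh1 nuclei of plantaris, and 321 and 608 CPM in gastrocnemius. Its log2 ratios were -2.55 (-3.18 to -1.98) and -0.92 (-1.59 to -0.31). Mybpc2, the fast myosin-binding protein C, had -1.51 and -0.83, and the fast light chain Myl1 -0.61 and -0.47. Of 19 calcium handling genes, 11 could be measured, none above and 5 below, with medians of -0.15 and -0.13. Of 27 regulators of fast and slow fibres, 19 could be measured, 5 above and 9 below. Eya4, a cofactor in the fast fibre programme, had -0.74 and -0.61, and Sox6, a repressor of slow genes, -0.28 and -0.24.

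The remaining lists showed no common direction or too few members. Of 18 genes of insulin and growth signalling, 9 could be measured, 3 above and 3 below. Of 14 atrophy and FoxO genes, 7 could be measured, 3 above and 4 below. Of 15 circadian clock genes, 7 could be measured, none above and 3 below. Of 14 early genes 2 could be measured, and both were lower in low Myh2 nuclei, with medians of -0.81 in plantaris and -1.90 in gastrocnemius.

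In the oxidative markers and fast genes, pure Myh4 nuclei stood further from the group than pure Myh1 nuclei did. They had lower levels of the oxidative markers and higher levels of fast ones. In plantaris 8.29% of 12376 genes were higher by 2-fold or more in low Myh2 nuclei and 11.4% lower, and in gastrocnemius 19.5% of 11348 were higher and 6.17% lower. In both muscles together, 438 of 11221 genes were higher and 208 lower by that size, with medians over all genes of -0.10 in plantaris and 0.39 in gastrocnemius. Pure Myh4 nuclei held 17164520 UMIs in plantaris and 14736227 in gastrocnemius, so a gene could pass the minimum through them alone. These shares therefore cannot be set against those for pure Myh1 nuclei. Of 25 measured genes of fatty acid uptake and oxidation, 15 were higher by 2-fold in both, with medians of 1.5 and 1.90. Of 15 oxidative regulators 7 were, with medians of 1.73 and 1.98, and of 10 measured angiogenic and hypoxia genes 7 were. Ppara had log2 ratios of 4.22 and 5.29 and Cd36 3.88 and 4.85. Of 15 fast sarcomere genes 8 were lower by 2-fold in both, among them Actn3, the fast Z-disc actinin, at -3.26 and -2.67, and of 25 glycolytic genes 7 were lower. The calcium buffer Pvalb had -3.70 and -2.85.

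Some plantaris differences were not seen in gastrocnemius, where the gene had few counts or stood at a like level in both groups. These names were chosen after their values were seen, in plantaris nuclei without those rich in junction markers, over 7523 genes, of which 2.78% were higher by 2-fold or more and 5% lower. Bdh1, the mitochondrial ketone body dehydrogenase, had 49.4 CPM (28 UMIs) in low Myh2 nuclei and 6.75 CPM (13 UMIs) in pure Myh1 nuclei, a log2 ratio of 2.87 (1.87 to 3.94), and in gastrocnemius 2 and 7 UMIs. Ankrd2, a stretch-responsive ankyrin protein, had 1.93 in plantaris but 0.13 (-0.30 to 0.54) in gastrocnemius, where both groups were high at 821 CPM (64 UMIs) and 751 CPM (215 UMIs). Csrp3, the muscle LIM protein, had 2.29, with 6 and 0 UMIs in gastrocnemius. Of the 209 genes higher this way in plantaris, only 19 could be measured in gastrocnemius. There 17 of the 19 (89.5%) were above 0, against 50.8% of all 2656 genes measured in both. Of the 376 lower, only 23 could be measured, and 14 of the 23 (60.9%) were below 0, near the 49.2% of all genes.

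Low and high Myh2 nuclei are set apart by the rule itself, through Myoz2 and Sox2ot, so this contrast is a description. Of 2885 measured genes, 16 (0.555%) were lower by 2-fold or more in low nuclei in both muscles and 1 (0.0347%) was higher. Within plantaris alone the shares past 2-fold were 0.277% higher and 1.07% lower, and within gastrocnemius 3.99% and 10.2%. The excess of lower genes turned round with no minimum count (198 higher and 40 lower) and without nuclei marked by broad junction lists (3 and 1), and with Myh1 under 10% the counts were 4 and 5. With no minimum, a gene of few UMIs can pass through depth alone. In gastrocnemius 2 UMIs are 25.6 CPM in low and 6.41 CPM in high Myh2 nuclei. Rmst, a long noncoding RNA, had 29.3 CPM in low and 123 CPM in high Myh2 nuclei of plantaris, and 12.8 CPM (1 UMI) and 154 CPM (48 UMIs) in gastrocnemius. Nkain2, whose product interacts with the sodium-potassium pump, had log2 ratios of -2.28 and -2.86. Pcp4l1, a Purkinje cell protein 4-like gene, had -3.09 and -2.50, Fam129a -1.78 and -1.53, Ccdc85a -1.33 and -1.46, and Stox2 -1.03 and -2.73. Kctd16, an auxiliary subunit of GABA-B receptors, was the gene higher in low nuclei, with 135 CPM in low and 37.4 CPM in high Myh2 nuclei of plantaris, and 205 CPM (16 UMIs) and 67.3 CPM (21 UMIs) in gastrocnemius.

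The markers of the oxidative programme stood slightly lower in low than in high Myh2 nuclei. Low over high Myh2, Ppara had log2 ratios of -0.21 (-0.33 to -0.08) in plantaris and -0.18 (-0.50 to 0.12) in gastrocnemius. Ppargc1a had -0.08 in both, and Cd36 -0.17 (-0.34 to -0.01) and -0.05 (-0.29 to 0.19). The intervals of Ppara and Cd36 in plantaris lie below 0, and those of all 3 in gastrocnemius hold it. Of 11 measured oxidative regulators, 2 were above and 7 below in both muscles, with medians of -0.12 and -0.17, and of 8 genes of ketone use and lactate handling none was above and 6 below, with -0.23 and -0.33. Over all 2885 genes 26.1% were above and 29.4% below. Ldhb, the heart-type lactate dehydrogenase, lay in between, with 84.6 CPM in low, 158 in high and 33.1 in pure Myh1 nuclei of plantaris, and 167, 240 and 20.9 CPM in gastrocnemius, where the low value rests on 13 UMIs.

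Across the 5 bins of Myoz2 and Sox2ot UMIs in plantaris (0, 1, 2, 3, and 4 or more), Ppara stood at 1624, 1847, 1908, 1789 and 2053 CPM. Cd36 stood at 954, 1160, 1117, 1061 and 1213 CPM. Ldhb was graded, at 68.7, 111, 120, 172 and 171 CPM, and so was Bdh1, at 46.7, 60.3, 70.7, 91.0 and 134 CPM. Rmst stood at 16.5, 51.0, 70.7, 20.2 and 177 CPM, highest in the last bin. Gastrocnemius showed the last of these patterns too, with 15.9, 0, 0, 109 and 199 CPM of Rmst, while Ppara there stood at 1175, 2264, 1418, 1182 and 1688 CPM with no order.

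**Figure D4:**
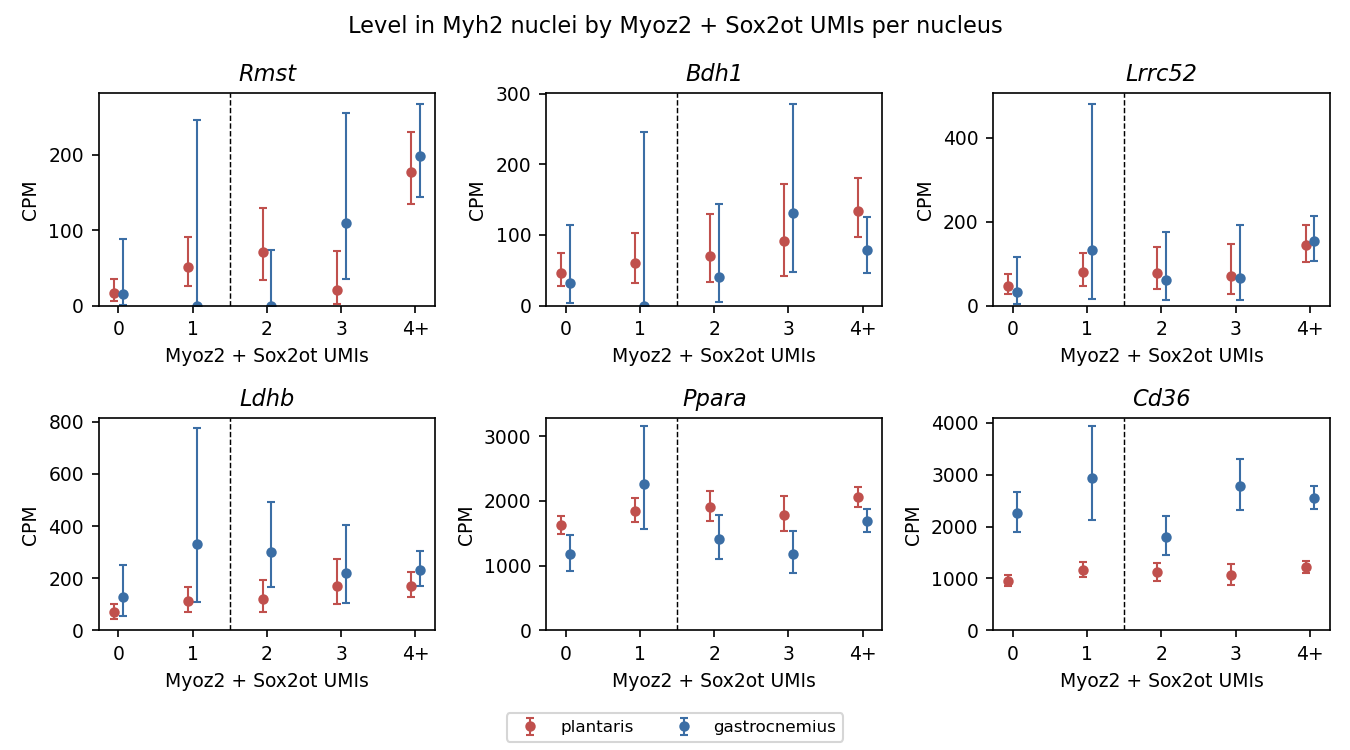
Points give the level in CPM of 6 genes in Myh2 nuclei by their UMIs of Myoz2 and Sox2ot (horizontal axis), plantaris beside gastrocnemius, with exact Poisson 95% intervals. The dashed line parts low from high Myh2 nuclei, and Rmst is highest with 4 or more UMIs, at 177 CPM in plantaris and 199 CPM in gastrocnemius.

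Low Myh2 nuclei varied among themselves in how much Myh4 they carried. In plantaris 78 had no Myh4 UMI, 68 had some but under 20% of their myosin UMIs, and 25 had 20% or more, and in gastrocnemius the numbers were 15, 13 and 9. Over those 3 classes in plantaris, Ppara stood at 1817, 1733 and 1293 CPM and Cd36 at 1127, 1035 and 718 CPM. Actn3 stood at 58.1, 46.3 and 168 CPM and Pvalb at 15.5, 25.2 and 144 CPM. In gastrocnemius Ppara was not ordered this way, at 1194, 1523 and 1535 CPM, while Actn3 was highest in the last class again, at 119, 39.1 and 265 CPM. Doublets remain in the data, and high doublet scores were not even across the groups. The highest 10% of scores in each library held 25 of 171 low Myh2 nuclei of plantaris and 5 of 37 of gastrocnemius. They held 44 of 531 and 6 of 98 pure Myh1 nuclei, and 11 of 141 and 6 of 94 high Myh2 nuclei. Among pure Myh4 nuclei they held 536 of 4290 and 479 of 4589. The part of doublets in these values was not tested.

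The muscles were compared at like subtype, low Myh2 nuclei of plantaris with those of gastrocnemius, and the same ratio was taken in the other groups. Of 4056 genes with 20 or more UMIs over both libraries, 503 (12.4%) were higher by 2-fold or more in plantaris and 258 (6.36%) lower. Plantaris nuclei held 7.43 times the UMIs, so a gene could pass the minimum through plantaris alone. With no minimum the balance turned round, with 657 higher and 2061 lower, but 1 gastrocnemius UMI then weighs as much as 7.43 plantaris UMIs. The same shares were 8.06% and 4.51% in high Myh2 nuclei, 15.6% and 6.72% in hybrid nuclei, 14.9% and 4.27% in pure Myh1 nuclei, and 12.2% and 1.65% in pure Myh4 nuclei. The markers showed both directions. Cd36 was lower in plantaris at like subtype, with log2 ratios of -1.21 (-1.45 to -0.97) in low Myh2, -1.08 in high Myh2 and -1.14 in pure Myh1 nuclei. Ppargc1a was higher in plantaris by 0.91 (0.68 to 1.15) in low Myh2, 0.91 in high Myh2 and 0.25 in pure Myh1 nuclei. Ppara was higher by 0.30 (0.01 to 0.60), 0.33 and 0.38 in the same groups.

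Irs2, the adaptor that couples the insulin receptor to its kinases, was the gene with the firmest difference towards plantaris. It had 609 CPM (353 UMIs) in plantaris and 38.5 CPM (3 UMIs) in gastrocnemius, a log2 ratio of 3.99 (2.43 to 6.27) in low Myh2 nuclei. High Myh2 nuclei had 3.06 and pure Myh1 nuclei 3.40, while pure Myh4 nuclei had 0.67. Egln3, a prolyl hydroxylase that marks hypoxia-inducible factor for breakdown, had 326 CPM (189 UMIs) in plantaris and 25.6 CPM (2 UMIs) in gastrocnemius. Its ratios were 3.67 in low Myh2, 2.95 in high Myh2, 2.65 in pure Myh1 and 3.97 in pure Myh4 nuclei. The difference in these genes was thus not limited to low Myh2 nuclei.

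Hdac9, a class II histone deacetylase that binds MEF2, had 119 and 2 UMIs in plantaris and gastrocnemius and a ratio of 3.0, with 2.37 in high Myh2 and 1.65 in pure Myh1 nuclei. Avil, an actin-binding protein, had 115 and 1 UMIs and ratios of 3.95, 1.77 and 2.46 in the same groups. Alpl, tissue-nonspecific alkaline phosphatase, had 107 and 1 UMIs and 3.85, 0.87 and 0.77. Cpe, a peptide-processing carboxypeptidase, had 81 and 1 UMIs and 3.45, 1.86 and 0.20. Nr4a3 had 112 and 1 UMIs and 3.91 in low Myh2 nuclei, but 20 of the plantaris UMIs lay in 1 nucleus.

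Hmcn2, a matrix protein, had 63 UMIs in plantaris, 16 of them in 1 nucleus, and none in gastrocnemius. It was 2.83-fold higher in plantaris against a floor of 3 UMIs over the gastrocnemius group. Map7d1, a microtubule-associated protein, had 53 UMIs and none, and was 2.38-fold higher against that floor. The lower 95% counting bounds of their log2 ratios were 1.16 for Hmcn2 and 0.90 for Map7d1. Naa50, an acetyltransferase subunit, had 2.77 in low Myh2 nuclei on 2 gastrocnemius UMIs, but -0.32 in high Myh2 nuclei. Tshz2, a zinc finger factor, had 2.72, and Slc8a1 1.86, with 1.05 in high Myh2 and 0.79 in pure Myh1 nuclei.

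Towards gastrocnemius, Rbm20, the splicing regulator of titin, was among the best measured. It had 421 CPM (244 UMIs) in plantaris and 1885 CPM (147 UMIs) in gastrocnemius, a log2 ratio of -2.16 (-2.46 to -1.86) in low Myh2 nuclei. High Myh2 nuclei had -1.27, pure Myh1 nuclei -2.35 and pure Myh4 nuclei -3.01. Pdk4, the kinase that shuts off pyruvate dehydrogenase, had 330 CPM in plantaris and 1257 CPM in gastrocnemius, a ratio of -1.93, with -2.41 in high Myh2 and -1.10 in pure Myh1 nuclei. Ankrd2 had 197 and 821 CPM and a ratio of -2.06, with -1.75 and -3.96 in those groups. Fbxo40, a muscle ubiquitin ligase subunit known to target Irs1, had 259 and 885 CPM and -1.77, with -1.35 and -1.67.

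Myom2 had 44.9 CPM in plantaris and 321 CPM in gastrocnemius, a ratio of -2.84, with -2.34 in high Myh2 and -1.21 in pure Myh1 nuclei. Nckap5 had -2.18 in low Myh2 nuclei. F13a1, Rbpj, Slc9a9, Stxbp6 and Zswim6 were also lower in plantaris, with -5.29, -2.16, -2.69, -2.57 and -2.63. A single gastrocnemius nucleus with 3155 UMIs, which carried 6 Myh2 UMIs, held much of their counts. It held 18 of 21 F13a1 UMIs, 44 of 63 Rbpj, 7 of 13 Slc9a9, 5 of 12 Stxbp6 and 6 of 10 Zswim6 UMIs. The same nucleus held 30 of the 39 macrophage marker UMIs of the gastrocnemius group, and without it and others rich in markers of another cell type, a step chosen after seeing the data, the log2 ratio of Rbpj stood at 0.56.

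**Figure D5:**
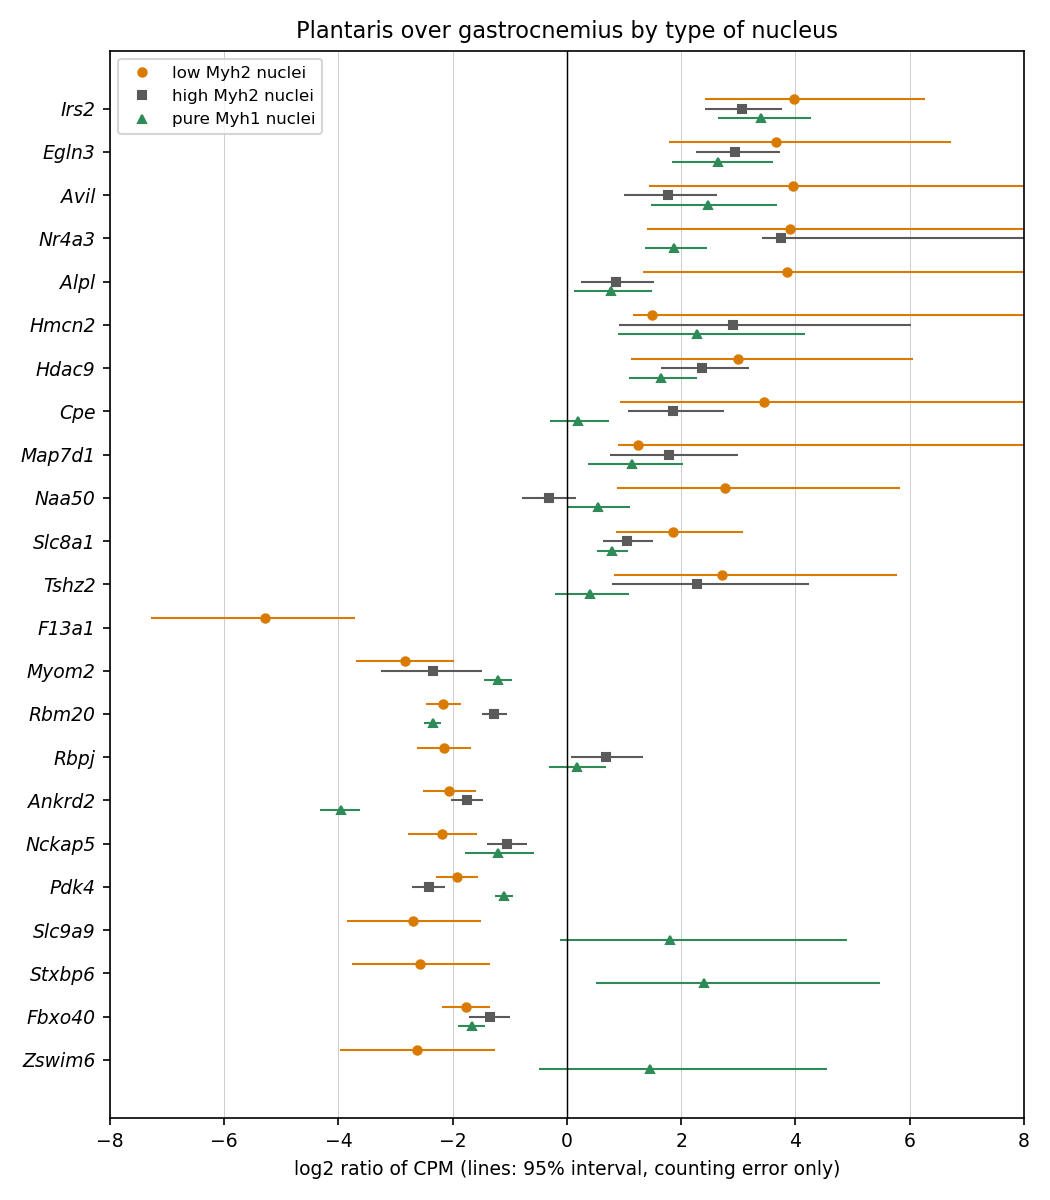
Log2 ratios of CPM in plantaris over gastrocnemius are drawn for the genes named in low Myh2 nuclei (circles), with high Myh2 (squares) and pure Myh1 nuclei (triangles) beside them and 95% intervals that cover counting error; lines that reach the right edge run past it, and a missing symbol means under 20 UMIs. Irs2 stands at 3.99, 3.06 and 3.40 and Rbm20 at -2.16, -1.27 and -2.35, and the symbols of Hmcn2 and Map7d1 in low and Nr4a3 in high Myh2 nuclei are set by the floor of 3 UMIs.

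The list of insulin and growth signalling leaned towards plantaris in low Myh2 nuclei and in the other groups. Of 18 insulin and growth signalling genes, 15 could be measured, with 4 higher and 2 lower by 2-fold in plantaris and a median of 0.61. Over all 4056 genes 12.4% were higher and 6.36% lower by that size, with a median of 0.06. The list's median was 0.50 in high Myh2, 0.67 in hybrid, 0.68 in pure Myh1 and 0.46 in pure Myh4 nuclei. Beside Irs2, the higher ones were Irs1, its sister adaptor, at 1.04 (0.42 to 1.74), Tbc1d4, which holds back glucose transporters until insulin acts, at 1.09 (0.45 to 1.80), and Grb14, an inhibitor of the insulin receptor, at 2.94 on 1 gastrocnemius UMI. The lower ones were Pik3r1, the regulatory subunit of PI3 kinase, at -1.12 (-1.76 to -0.43), and Grb10, another receptor inhibitor, at -1.09 (-2.04 to -0.02). Of 12 heat shock and stress genes, 6 passed the minimum, but 5 of them had 0 or 1 UMI in gastrocnemius and passed through plantaris, so no count or median is given for them.

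Of 15 fast sarcomere genes, 14 could be measured between the muscles, with none higher and 4 lower by 2-fold in plantaris. Over all 4056 genes the shares were 12.4% higher and 6.36% lower. The list's median was -0.58, where high Myh2 and pure Myh1 nuclei both had -0.18 and pure Myh4 nuclei -0.31. Tpm1, the fast alpha tropomyosin, had 409 CPM in plantaris and 1077 CPM in gastrocnemius, a log2 ratio of -1.40 (-1.76 to -1.02). Of 15 oxidative regulators, 12 could be measured, 2 higher and none lower, with a median of 0.29, and 0.34 in high Myh2 and 0.26 in pure Myh1 nuclei. Nrip1, the corepressor, had 271 CPM in plantaris and 103 CPM (8 UMIs) in gastrocnemius, while Esrrg was lower in plantaris, at 4249 and 6231 CPM, a ratio of -0.55 (-0.69 to -0.41). For fatty acid uptake and oxidation 18 genes could be measured, none higher and 2 lower, and their median was -0.05, with -0.51 in high Myh2 and -0.40 in pure Myh1 nuclei. The 18 measured genes of the citrate cycle and respiratory chain had -0.24, with -0.35 and -0.21 in those groups. Pure Myh4 nuclei had medians of 0.37 for oxidative regulators, 0.12 for fatty acid uptake and oxidation and 0.21 for the citrate cycle and respiratory chain. The fatty acid and citrate cycle medians were thus above 0 in pure Myh4 nuclei and below 0 in the groups above.

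Whether a muscle ratio was particular to low Myh2 nuclei was put to pure Myh1 nuclei by the difference between both groups' ratios. Of 4053 genes, 428 (10.6%) had a ratio at least 2-fold higher in low Myh2 than in pure Myh1 nuclei and 493 (12.2%) one at least 2-fold lower. The genes ranked first upward were Dnm1l, the mitochondrial fission GTPase, at 3.33, Cpe at 3.25, Ibtk at 3.24, Usp45 at 3.18 and Senp1, a SUMO protease, at 3.16. Each of them had 1 UMI in low Myh2 nuclei of gastrocnemius. Downward they were Stxbp6 at -4.98, Spred1 at -4.62, Slc9a9 at -4.50, Zswim6 at -4.09 and Ptprj at -4.07, each with 1 or 2 UMIs in pure Myh1 nuclei of gastrocnemius. Every one of these 10 differences rests on 1 or 2 UMIs in 1 of its 4 sums, and the nucleus with macrophage markers gave part of each of the last 5. The interval behind this ranking took counts under 3 as 3, which understates their error and favours such genes.

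Markers of other cells were present in part of the group, and 41.5% of low Myh2 nuclei of plantaris and 40.5% of those of gastrocnemius held 2 or more UMIs of them in all, against 50.1% and 32.7% of pure Myh1 nuclei. Mural markers gave the largest sum in plantaris, 324 CPM in low Myh2 nuclei (8 of 9 members) and 372 CPM in those of gastrocnemius (3 of 9), against 404 and 219 CPM in pure Myh1 nuclei. Most of it was 1 gene, Abcc9, with 158 of 188 mural UMIs in plantaris and 25 of 29 in gastrocnemius. In pure Myh1 nuclei Abcc9 gave 651 of 843 and 56 of 63. Mural markers alone marked 25.1% and 16.2% of low Myh2 nuclei, so the shares above rest in part on this gene and need not mean other cells. Schwann cell markers summed to 12.1 CPM (3 of 8) and 103 CPM (2 of 8, on 8 UMIs) in low Myh2 nuclei, against 13.9 and 31.3 CPM in pure Myh1 nuclei, with Sox10 at 0 in both groups. Mesenchymal progenitor markers summed to 190 CPM in low Myh2 nuclei of plantaris and 321 CPM in those of gastrocnemius, against 194 and 90.4 CPM in pure Myh1 nuclei, and 10 of 10 and 7 of 10 members had a UMI in low Myh2 nuclei. Macrophage markers summed to 19.0 CPM (3 of 8 members) in low Myh2 nuclei of plantaris and 500 CPM (6 of 8) in those of gastrocnemius, against 18.2 and 27.8 CPM in pure Myh1 nuclei. Csf1r and Itgam were at 0 in both. Endothelial markers summed to 36.2 and 12.8 CPM in low Myh2 nuclei, with Cdh5, Kdr, Cyyr1 and Tie1 at 0 in both, and muscle stem cell markers to 36.2 and 25.6 CPM, with Pax7 at 0 in gastrocnemius. All 6 adipocyte markers, Adipoq among them, were at 0 in both libraries, which allows up to 5.18 CPM in plantaris and 38.5 CPM in gastrocnemius. Their part in the muscle differences was not tested beyond the values without such nuclei.

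The neuromuscular and myotendinous junctions are specialised contact zones and ends of a fibre. In plantaris, nuclei marked by their genes were a smaller or a larger share than among pure Myh1 nuclei, by the list used. By 2 or more UMIs of the broad marker lists, 140 low Myh2 nuclei of plantaris (81.9%) and 26 of gastrocnemius (70.3%) were marked, against 415 (78.2%) and 67 (68.4%) pure Myh1 nuclei. Taking nuclei with 2 or more UMIs of a narrow list of junction genes, chosen after seeing the data, 3 low Myh2 nuclei of plantaris (1.75%) and none of 37 in gastrocnemius were marked, where 0 allows a share of up to 8.11%. Among pure Myh1 nuclei 32 (6.03%) and 1 (1.02%) were. Neuromuscular junction markers summed to 278 CPM in low Myh2 and 500 CPM in pure Myh1 nuclei of plantaris, and to 410 and 302 CPM in gastrocnemius. Myotendinous junction markers summed to 1168 CPM in low Myh2 and 1674 CPM in pure Myh1 nuclei of plantaris, and to 1333 and 904 CPM in gastrocnemius. Few genes made up these sums in low Myh2 nuclei. Musk gave 126 of 161 neuromuscular UMIs in plantaris and 26 of 32 in gastrocnemius. Pitpnc1 and Lama2 gave 445 and 141 of 677 myotendinous UMIs in plantaris, and 74 and 19 of 104 in gastrocnemius. The broad lists thus need not mark junction nuclei. Col22a1, a collagen of the myotendinous junction and a member of both lists, had 15.5 CPM in low Myh2 and 86.7 CPM in pure Myh1 nuclei of plantaris. The part of such nuclei in other genes' ratios was not tested beyond leaving them out.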

How the data were processed

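Nuclei were released from minced plantaris and gastrocnemius by bead homogenisation, sorted on a stain of their DNA (propidium iodide) and loaded on the 10x Chromium 3' v3.1 system, per the labels' protocols. The submitters' processing notes name Cell Ranger 6.0.1 and build mm10. The sources used here do not give the annotation or say whether intronic reads were counted.

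The deposited table holds raw UMI counts for 32285 genes in 16530 nuclei, with a deposited sample table giving the library of each nucleus. Plantaris held 9156 nuclei and 29248275 UMIs (median 2714 per nucleus), and gastrocnemius 7374 nuclei and 19048595 UMIs (median 2260). No nucleus had under 500 UMIs. Scrublet, run in scanpy 1.11.5 on each library, marked 2 nuclei per library as doublets (0.0218% and 0.0271%), under the 0.5% at which the caller is taken to have worked, so doublets remain.

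Groups were made from UMI counts alone, and UMIs were summed per group and library. Intervals are exact Poisson for CPM, exact conditional binomial for ratios and exact Clopper-Pearson for shares, at 95%. For the difference of muscle ratios the interval is approximate, from the Poisson variance of the counts. It took counts under 3 as 3, which understates their error. PCR duplicates are collapsed by UMI, and intervals and floors cover counting error only. With 1 library per muscle no test was run. A gene needed 20 UMIs over the groups compared, in each library where the comparison was within libraries, and a count of 0 was set to 3. The 6 genes of the rule were left out of counts and medians. Mesenchymal-like nuclei held 5 or more UMIs of progenitor markers such as Pdgfra and Dcn and were in no myosin group. Thinning drew 1000 UMIs per nucleus without replacement (seed 0).

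Named genes reached 2-fold the same way in both libraries (up to 12 each way against pure Myh1 and 8 against high Myh2 nuclei). Between the muscles they were the 12 each way, and for the difference of muscle ratios the 5 each way, ranked by the interval bound nearer to 0, the farthest first. Gene models named Gm or Rik were not ranked, and 1 ranked gene is not reported here, though it is part of the counts over all genes. The members and lists were chosen with earlier results of these data known. Gene names matched GENCODE M21 for 31424 genes. The ratio code was checked on simulated counts. Alternatives changed the thresholds, the depth, the scaling, the minimum count and the nuclei left out. Software was Python 3.11.15, numpy 2.4.6, scipy 1.17.1, pandas 2.3.3 and matplotlib 3.10.9.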

Additional observations from a re-analysis of the deposited data

Results flagged for a closer look

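Genes were ranked by the difference between the muscle ratios (plantaris over gastrocnemius) of low Myh2 and pure Myh1 nuclei. Of the 10 that led the ranking, 5 each way, 6 had ratios in opposite directions, by 2-fold or more in each group. Over all 4053 genes 22 (0.543%) did. The ranking itself favours opposite ratios, so the shares cannot be compared as like with like, and the difference was not tested. Senp1 had log2 ratios of 2.15 in low Myh2 and -1.01 in pure Myh1 nuclei, a difference of 3.16, on 1 gastrocnemius UMI in low Myh2 nuclei. Stxbp6 had -2.57 and 2.41, a difference of -4.98. Spred1 had -1.31 and 3.31, a difference of -4.62. Slc9a9 had -2.69 and 1.81, a difference of -4.50. Zswim6 had -2.63 and 1.46, a difference of -4.09. Ptprj had -1.22 and 2.86, a difference of -4.07. The last 5 had 1 or 2 UMIs in pure Myh1 nuclei of gastrocnemius. The gastrocnemius nucleus that held 30 macrophage marker UMIs supplied 5 of 12 Stxbp6, 1 of 5 Spred1, 7 of 13 Slc9a9, 6 of 10 Zswim6 and 6 of 10 Ptprj UMIs in low Myh2 nuclei.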

How the results depend on the processing

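The 37 gastrocnemius nuclei, with 77994 UMIs, set the precision of every ratio. No paired analysis was possible because there is 1 library per muscle and no label ties the muscles to shared animals. No alternative turned the order of the low shares, which were higher in plantaris in every one. Scaling by median ratios, leaving out nuclei by a narrow junction list (chosen after seeing the data) and leaving out the top doublet scores moved no share or count by over 1.5 times.

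With 10 or more myosin UMIs, 21 low nuclei remained in gastrocnemius, 1 gene was higher than in pure Myh1 nuclei (9 in the reported counts), and 2 were higher than in high Myh2 nuclei. With 0 UMIs of Myoz2 and Sox2ot allowed and nuclei with 1 left out, 111 plantaris nuclei (44.0%) were low, 2 genes were higher and 27 lower than in high Myh2 nuclei, and 317 muscle ratios were lower than in pure Myh1 nuclei. With fewer than 3 allowed, the low share was 67.9% in plantaris and 44.3% (58 nuclei) in gastrocnemius, and 2 genes were higher than in high Myh2 nuclei. With Myh4 under 20%, 2 were. With Myh1 under 10%, 98 plantaris (64.9%) and 15 gastrocnemius nuclei (20%) were low, and 4 genes were higher and 5 lower than in high Myh2 nuclei.

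Thinned to 1000 UMIs, 3 genes were higher and 5 lower than in pure Myh1 nuclei, 3 were lower than in high Myh2 nuclei, 244 were higher and 117 lower in plantaris, and 211 muscle ratios were higher and 177 lower than in pure Myh1 nuclei. Without nuclei marked by the broad junction lists, 31 plantaris and 11 gastrocnemius nuclei (44.0%) were low, with 1 gene higher and 5 lower than in pure Myh1 nuclei, 3 higher and 1 lower than in high Myh2 nuclei, 139 higher and 57 lower in plantaris, and 133 and 84 for the difference of ratios. Those lists mark most nuclei of the group.

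Without nuclei that held 2 or more UMIs of other cell types, 100 plantaris and 22 gastrocnemius nuclei were low, 4 genes were higher than in pure Myh1 nuclei, 0 were higher and 8 lower than in high Myh2 nuclei, 265 muscle ratios were lower, and Rbpj turned to 0.62. Without nuclei with 5 or more UMIs of any 1 other type (chosen after seeing the data), Rbpj stood at 0.56. With the mean of each nucleus's CPM, 5 genes were higher than in high Myh2 nuclei. With no minimum count, 146 genes were higher and 20 lower than in pure Myh1 nuclei, 198 and 40 against high Myh2 nuclei, 2061 were lower in plantaris, and 665 muscle ratios were higher and 1781 lower. These counts take in genes of few UMIs, which can pass 2-fold through depth alone. Of 1015 values of the single genes reported, under the alternatives, 914 moved by less than their interval, 99 moved by more and 2 turned round. Of the 914, 86 came from the setting with no minimum count, which cannot change the ratio of a gene. Genes that fell under the minimum dropped out of the tally. Without nuclei marked by the broad junction lists, 17 values moved by more and 15 did not. Without nuclei holding UMIs of other cell types, 18 moved by more, 1 turned round and 39 did neither.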
